A study of Mus musculus with 2 samples.

Results

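The genes described here are 7 members of a synaptic ligand and receptor family: the cerebellins Cbln1, Cbln2 and Cbln4, the C1q-like genes C1ql1, C1ql2 and C1ql3, and Grid1, which encodes the delta glutamate receptor GluD1. They were chosen by name among the 32285 gene rows of the tables, and all 7 had a row. Nuclei came from the thalamus of the operated side of female C57BL/6J mice aged 3 months, collected on day 21 after cortical ablation injury, in which sensory and motor cortex was aspirated on 1 side, or after a sham operation with a burr hole and no ablation. Per the methods, surgery was done under isoflurane with Carprofen or Buprenorphine for pain. Nuclei of 4 mice were pooled per group into 1 library, so every difference below is a difference between 2 libraries, with no replicate check and no test. Intervals are at 95% and cover counting error only.

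Cerebellins and C1q-like proteins are secreted proteins with a C1q-type globular domain that act as glues between the sides of a synapse. Cerebellins bind neurexins on the axon terminal and delta receptors on the facing neuron, and Cbln1 is best known from the synapse between granule cells and Purkinje cells in the cerebellum. C1q-like proteins bind the adhesion receptor Adgrb3, and C1ql2 and C1ql3 also bind neurexin 3 and kainate receptor subunits at hippocampal mossy fibre synapses. In the thalamus, cerebellins are known from neurons of the midline and intralaminar nuclei.

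Nuclei were named from marker genes, and each name stands for nuclei like that class. Levels are UMIs (unique molecular identifiers, each standing for 1 captured RNA molecule) summed over the nuclei of a class or cluster and scaled to the total of the same nuclei (CPM, counts per 1000000 UMIs). From the sham mice 16390 barcodes with 137850696 UMIs were deposited and from the injured mice 21828 with 180106314, of which 101 barcodes occurred in both. After filtering, the thalamic class held 6307 sham and 6315 injury nuclei, the habenular class 1853 and 2118, and the GABAergic class 2325 and 3905. The marker Synpo2 stood at 983 CPM in sham thalamic nuclei and 13.7 in habenular ones, Nwd2 at 4505 in habenular and 93.3 in thalamic nuclei, and Gad2 at 342 in GABAergic and 3.05 in thalamic nuclei. Of the thalamic markers, Gbx2 was nearly absent from the thalamic class, at 1.56 CPM in the sham library. The libraries differed in makeup: a cortex-like cluster of 281 nuclei and a dentate-like cluster of 219 nuclei, neither seen in the sham library, and a GABAergic cluster with 390 injury nuclei and 1 sham nucleus entered no comparison.

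Near-identical stretches can split reads between related genes. Among all 28 pairs of the 8 cerebellin and C1q-like genes, the longest exact run shared by their transcripts was 10 to 38 bases, with a median of 13.5. The longest belongs to C1ql2 and C1ql3, both described below as high in cluster 17. It lies in the coding part of exon 1 of both genes, at chr1:120341611-120341670 (plus strand) and chr2:13010391-13010450 (minus strand). The shared run is in capitals in these windows from GENCODE M21 transcripts on GRCm38, written 5′ to 3′:
C1ql2: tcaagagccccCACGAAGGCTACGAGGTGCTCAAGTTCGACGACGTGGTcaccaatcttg
C1ql3: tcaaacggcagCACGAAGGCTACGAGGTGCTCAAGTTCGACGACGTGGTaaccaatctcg

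Cbln1 and Cbln4, the cerebellins that share the highest cluster, are shown for contrast. Their longest shared run was 14 bases, at chr8:87472117-87472176 and chr2:172042166-172042225 (minus strand), also in the coding part of exon 1:
Cbln1: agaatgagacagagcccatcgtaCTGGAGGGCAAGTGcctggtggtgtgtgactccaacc
Cbln4: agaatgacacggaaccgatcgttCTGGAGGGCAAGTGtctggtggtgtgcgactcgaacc

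On GRCm38, Cbln1 (ENSMUSG00000031654) lies at chr8:87468405-87472609 on the minus strand and Cbln2 (ENSMUSG00000024647) at chr18:86711110-86718283 on the plus strand. Cbln4 (ENSMUSG00000067578) lies at chr2:172036233-172043466 on the minus strand. C1ql1 (ENSMUSG00000045532) lies at chr11:102939264-102946688 on the minus strand, C1ql2 (ENSMUSG00000036907) at chr1:120340582-120343174 on the plus strand and C1ql3 (ENSMUSG00000049630) at chr2:13003457-13011806 on the minus strand. These ligand genes span 2593 to 8350 bases. Grid1 (ENSMUSG00000041078) spans 763272 bases in 16 exons at chr14:34820108-35583379 on the plus strand. Whether intronic reads were counted is not given in the sources used here, so levels were compared between nuclei for 1 gene at a time and never between genes.

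To determine where the ligands and the receptor were expressed, levels were compared over 20 neuron clusters with at least 50 nuclei in each library. Members and their partner genes were kept out of the genes used for clustering. Among the thalamic, habenular and GABAergic classes, and for the 5 members with at least 50 UMIs in one of them, Cbln1 and C1ql3 were highest in the thalamic class in both libraries and Cbln2 in the habenular class. Of these 3 classes, Grid1 was highest in the habenular one in sham (859 CPM) and in the thalamic class in injury (915 CPM). The sham order depended on the clustering. With neurons clustered at a resolution of 1.0, sham habenular nuclei stood at 670 CPM of Grid1. Sham thalamic nuclei had at least 765 CPM under every alternative that gave this level. Cbln4 stood at 11.8 CPM in thalamic and 10.1 in habenular nuclei in sham and at 11.6 and 12.3 in injury, classes that were not apart in either library. At a resolution of 1.0 thalamic nuclei had 6.70 CPM of Cbln4 in sham and 5.26 in injury, lower than habenular nuclei. Habenular nuclei had at least 9.62 CPM in sham and 12.2 in injury under every alternative that gave these levels. None of these 5 was highest in the GABAergic class.

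Cbln1, the founding member of the cerebellins, was concentrated in a few thalamic clusters. It stood at 30.9 CPM in sham and 20.5 in injury nuclei of cluster 4 (led by Ccdc192, Lypd6b and Hpse2). Cluster 12 (Adgrg6, Egflam, Klhl14) had 21.3 and 16.9 CPM and cluster 13 (Npsr1, Col27a1, Itga4) 16.2 and 11.5. These 3 clusters held the first ranks in both libraries, but no neighbours in the order were apart in both. The median over the 20 clusters was 1.32 CPM in sham and 1.17 in injury, so most clusters carried little Cbln1. Of the habenular clusters, cluster 8 (Ptprq, Kcnh8) had 10.9 and 4.71 CPM, and cluster 7, the cluster with the cholinergic marker Chat, had 0.670 and 1.19. In the GABAergic class Cbln1 stood at 1.17 and 1.20 CPM. Oligodendrocytes, a cell type not known to make cerebellins, held 3.51 and 2.11 CPM, from 6 and 9 UMIs in nuclei of low depth, while sham neurons of cluster 14 stood at 0.426 CPM.

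Cbln2, which like Cbln1 binds neurexins and GluD1, was highest in habenular clusters and in 1 unnamed glutamatergic cluster. Habenular cluster 8 had 58.3 CPM in sham and 48.1 in injury nuclei, and cluster 14 (Glra3, Ankfn1), of whose nuclei 29.7% were called doublets, had 46.9 and 49.5. Habenular cluster 11 (Pde11a) followed at 32.3 and 38.6, and thalamic cluster 4 at 28.0 and 25.6. Only below cluster 4 was a step in the order apart in both libraries. Thalamic clusters 12 and 13, which were high in Cbln1, had 2.13 and 2.30 CPM and 2.21 and 1.83 CPM of Cbln2. At a finer resolution, cluster 8 split into a part with 89.97 and 74.1 CPM of Cbln2 and 2.95 and 1.54 of Cbln1, and a part with 38.0 and 31.3 of Cbln2 and 16.0 and 6.52 of Cbln1.

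Cbln4, a cerebellin that binds neurexins and the receptor DCC, had 1 peak. Cluster 4 stood at 75.6 CPM in sham (69.8 to 81.8) and 66.9 in injury (62.0 to 72.1), apart from all other clusters in both libraries. It held 41.2% and 43.0% of all Cbln4 UMIs of the libraries. Cholinergic habenular cluster 7 came next, with 19.1 and 23.0 CPM, beside cluster 14 with 23.0 and 16.9. Cluster 4 was thus first for Cbln1 and Cbln4 and the fourth for Cbln2 in both libraries. It split at the finer resolution into a part with 84.4 and 79.9 CPM of Cbln4 and 22.7 and 15.6 of Cbln1, and a part with 59.7 and 45.3 of Cbln4 and 45.0 and 28.1 of Cbln1. In both libraries the part higher in Cbln4 was lower in Cbln1, with intervals that did not overlap. After thinning each nucleus to 2000 UMIs, Cbln4 was seen in 14.4% of sham and 13.5% of injury nuclei of cluster 4, where an even spread over nuclei would give 15.1% and 13.7%. Without thinning the shares were 46.4% (median of 8341 UMIs a nucleus) and 42.5% (9072 UMIs). In oligodendrocytes, with medians of 1539 and 1652 UMIs, they were 0.303% and 0.391%.

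**Figure D1:**
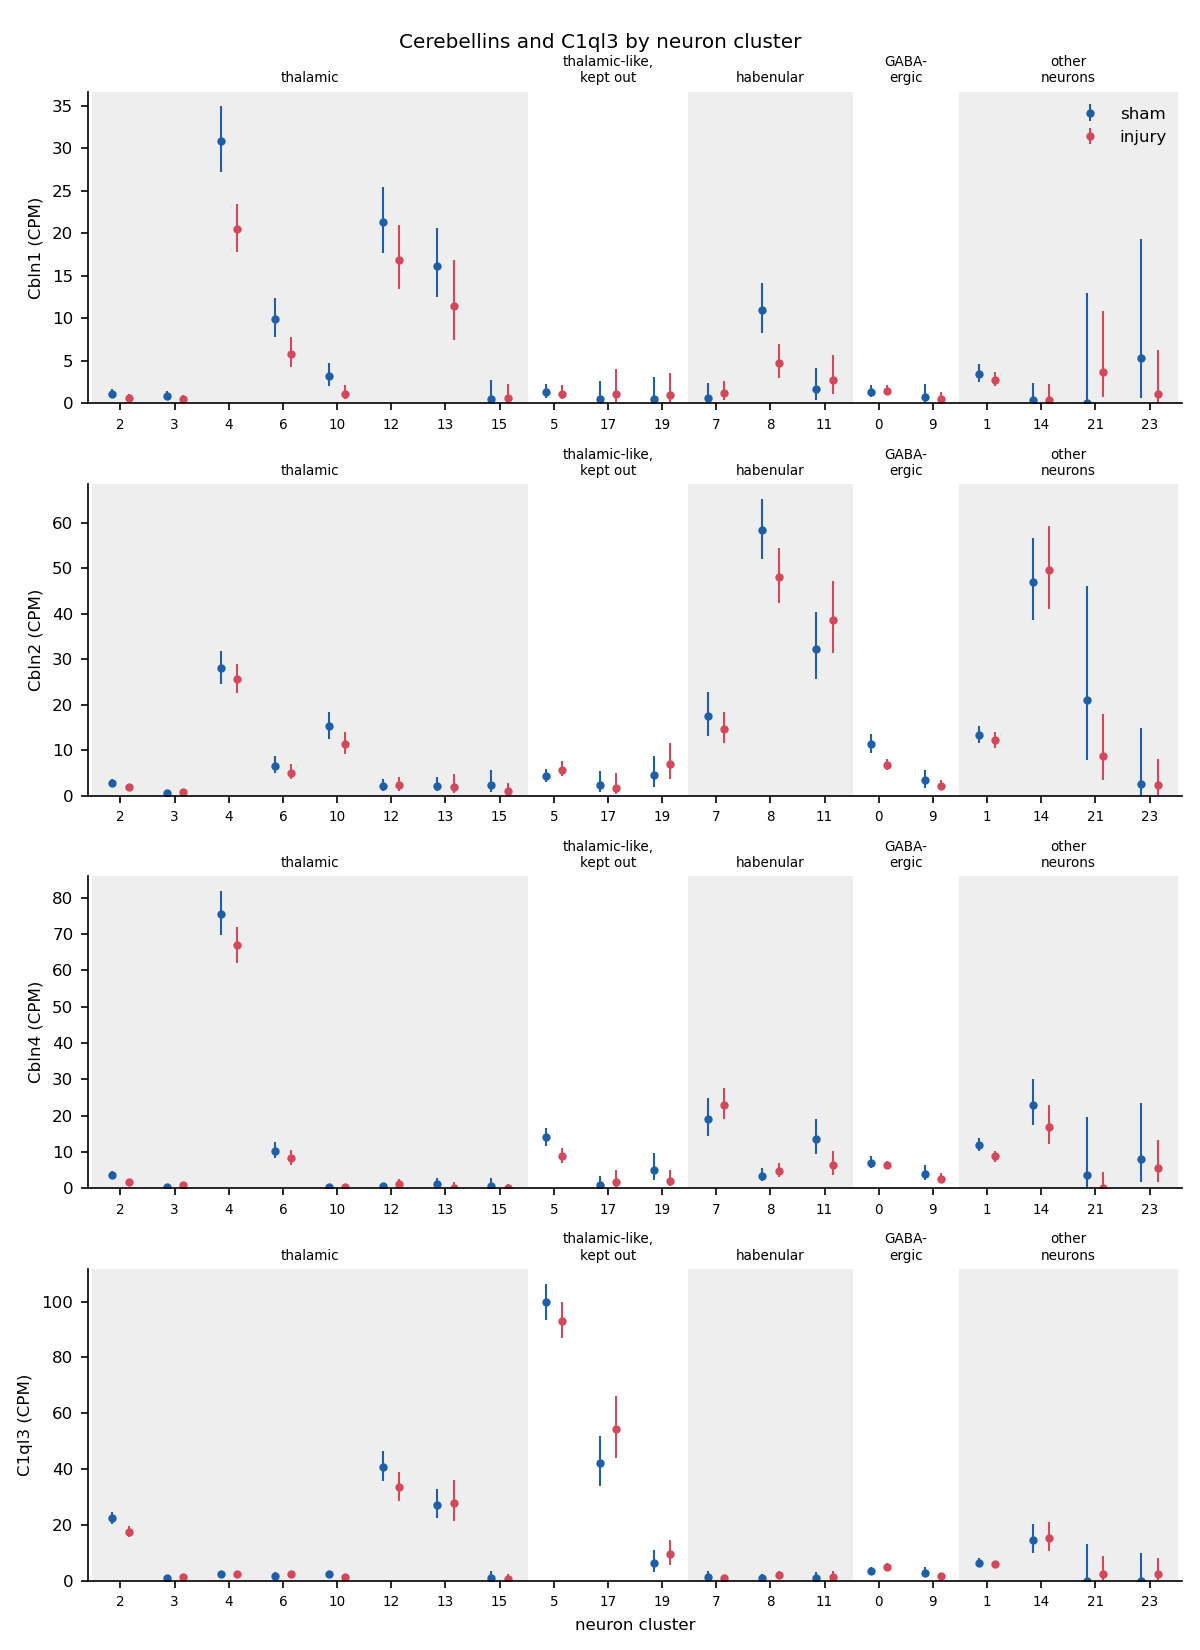
Level of Cbln1, Cbln2, Cbln4 and C1ql3 in CPM (vertical axes, from 0) in the 20 neuron clusters (horizontal axis, by class) of the sham (blue) and injury (red) library, with exact Poisson 95% intervals as bars. Cluster 4 is highest for Cbln1 and Cbln4, habenular clusters 8 and 11 and cluster 14 for Cbln2, and cluster 5 for C1ql3 at 99.7 and 93.1 CPM.

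C1ql3, a ligand of Adgrb3, was highest in other thalamic-like neurons than the cerebellins, and shared clusters 12 and 13 with Cbln1. Cluster 5 (Col12a1, Ror1, Glis3) had 99.7 CPM in sham (93.3 to 106) and 93.1 in injury (86.8 to 99.7), apart from all others, and held 39.9% and 32.0% of the C1ql3 UMIs of the libraries. Clusters 17 (42.0 and 54.2 CPM), 12 (40.7 and 33.4), 13 (27.3 and 28.0) and 2 (22.4 and 17.5) followed in the same order in both libraries. Clusters 5 and 17 met the thalamic marker count but were kept out of the thalamic class because their leading genes held a marker of another class and none of their own. Cluster 4, the cerebellin cluster, had 2.18 and 2.42 CPM of C1ql3. The habenular class had 1.03 and 1.34 CPM and the GABAergic class 3.23 and 4.08. As an upper estimate, free RNA alone would give 5.13 and 2.77 CPM in the habenular and 4.51 and 3.81 in the GABAergic class. Oligodendrocytes had 11.7 and 12.9 CPM, from 20 and 55 UMIs in nuclei of low depth, below the 16.4 and 14.2 CPM of the whole libraries. In the dentate-like cluster of the injury library C1ql3 reached 226 CPM (202 to 252).

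C1ql2 and C1ql1 were rare. C1ql2, the mossy fibre relative of C1ql3, had 43 UMIs in the whole sham library and 73 after injury. Cluster 17 (Col27a1, Rspo3, Slco1c1) held 28 and 19 of them, or 65.1% (49.1 to 79.0) and 26.0% (16.5 to 37.6), at 13.2 and 10.6 CPM. The dentate-like cluster held another 21 in the injury library, at 14.9 CPM. The habenular class had 0 UMIs in both libraries, and the thalamic class 9 and 2. C1ql1, the ligand that climbing fibres use in the cerebellum, was highest in glial precursors and in a small group of neurons. Oligodendrocyte precursors (OPC) had 81.7 CPM in sham (58.9 to 110) and 52.3 in injury (38.1 to 69.9), from 42 and 45 UMIs in 142 and 218 nuclei. Their marker Pdgfra stood at 502 and 529 CPM, and at 0.563 and 0.789 in the habenular class. Among neurons, cluster 1 (Lmx1a, Ebf3, Sim1; like hypothalamic, subthalamic or midbrain neurons) was first at 3.09 and 2.82 CPM, from 43 UMIs in each library. In sham, 29 of these UMIs lay in a finer cluster of 60 nuclei, at 52.7 CPM (35.3 to 75.7), an interval that overlaps that of the precursors. The other finer parts of cluster 1 had 0.831 and 2.23 CPM in sham. That finer cluster had fewer than 50 nuclei in the injury library, so its level there was not computed. Precursors and cluster 1 thus held 33.1% and 33.9% of the C1ql1 UMIs in the sham library and 30.8% and 29.5% in the injury library.

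Grid1, the receptor gene, was found in all 20 neuron clusters and varied less between them than Cbln1 and C1ql3. Its highest cluster was 1.93 and 1.83 times the median cluster in the sham and injury library, against 23.4 and 17.5 times for Cbln1 and 41.5 and 38.0 times for C1ql3. Habenular cluster 8 (1434 and 1414 CPM) and thalamic cluster 4 (1334 and 1431 CPM) were highest and exchanged ranks between the libraries. Cluster 17 followed at 1213 and 1192 CPM, apart from its neighbours on both sides. The lowest levels were in cholinergic habenular cluster 7, at 224 and 223 CPM, and in GABAergic cluster 9, like the thalamic reticular nucleus, at 326 and 297 CPM. Cluster 8 was also first or second for Cbln2, and cluster 4 first for Cbln1 and Cbln4. Oligodendrocytes had 44.5 and 63.6 CPM of Grid1 and their precursors 1060 and 1158.

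**Figure D2:**
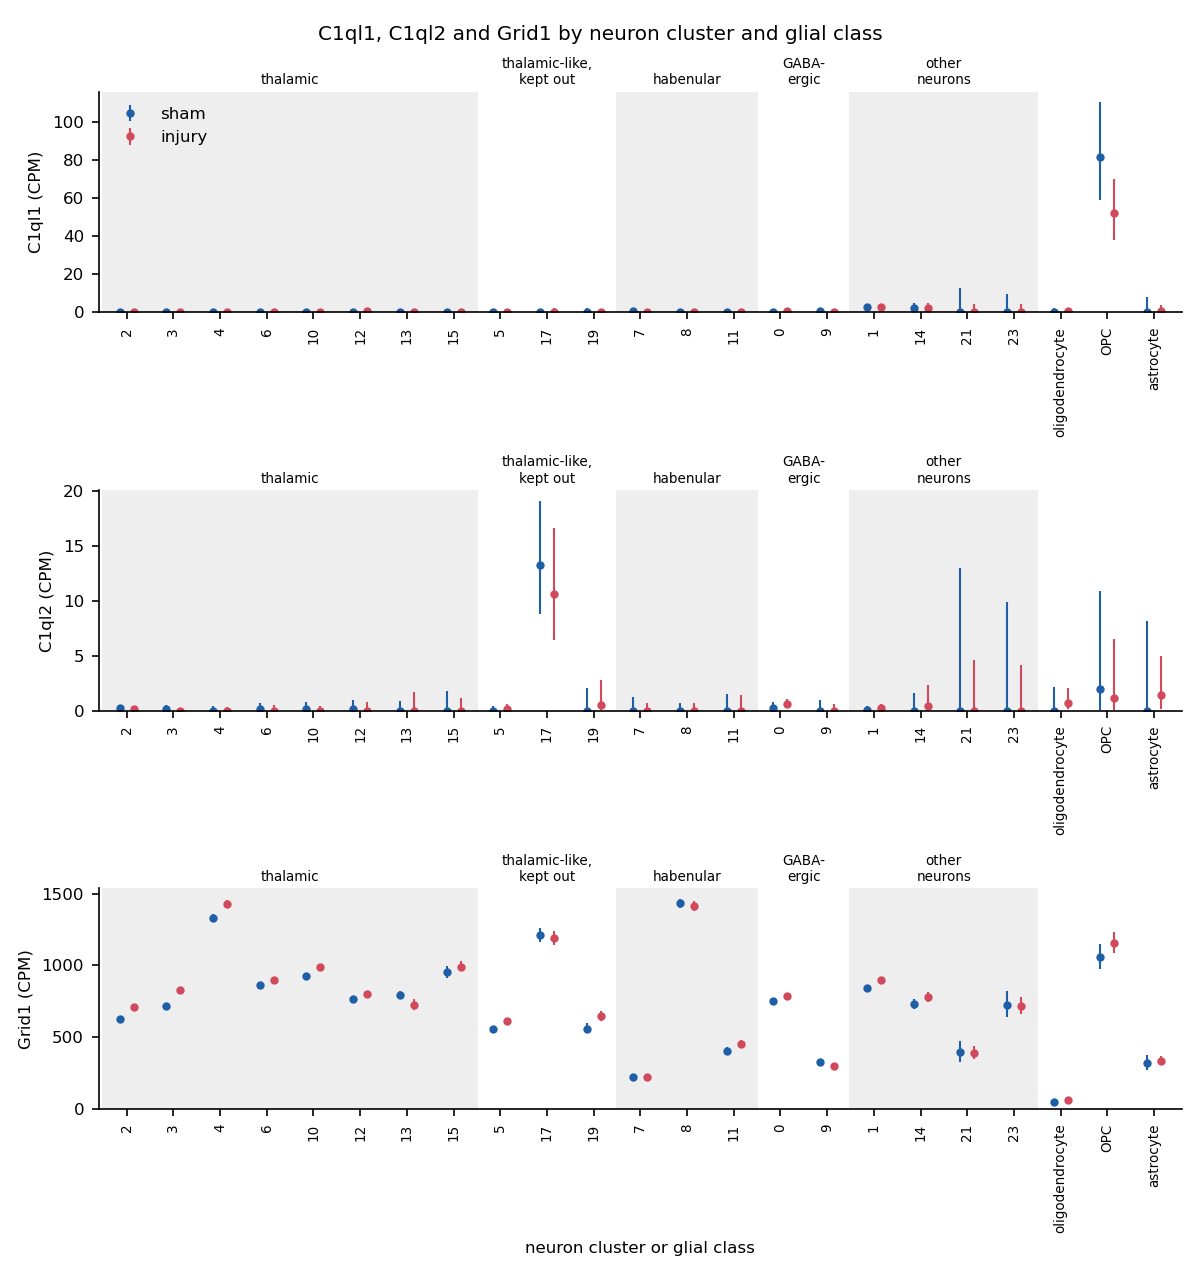
Level of C1ql1, C1ql2 and Grid1 in CPM (vertical axes, from 0) in the 20 neuron clusters and in oligodendrocytes, their precursors (OPC) and astrocytes, for the sham (blue) and injury (red) library, with exact Poisson 95% intervals. C1ql1 stands out in OPC at 81.7 and 52.3 CPM, C1ql2 in cluster 17 at 13.2 and 10.6 CPM, and Grid1 is lowest among neurons in cluster 7 at 224 and 223 CPM.

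Of the partners of the family, Nrxn3 was highest in reticular-like cluster 9, at 9370 and 9266 CPM, and lowest in cluster 7, at 65.7 and 99.5. Cluster 7 was also the lowest in Grid1, at 224 and 223 CPM. Adgrb3, the receptor of the C1q-like proteins, was highest in habenular cluster 8 (4275 and 4129 CPM), where C1ql3 stood at 0.958 and 1.96 CPM. Cbln3 and C1ql4 had no more than 5 UMIs in any of the 3 classes of a library.

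To determine how the family differed after cortical injury, levels were compared between the libraries in each class. A member was counted as different past 1.5-fold with at least 50 UMIs over both libraries. In the thalamic class 5 members had enough UMIs and 1, Cbln1, was past 1.5-fold, against 5.69% of all genes (3.18% lower in injury). In the habenular class it was 1 of 4, again Cbln1, against 4.45% of all genes (2.09% lower), and in the GABAergic class 1 of 4, Cbln2, against 7.2% (2.43% lower). All of them were lower after injury. The median log2 ratio of injury over sham was -0.10 over the thalamic members and -0.02 over all genes, -0.26 and -0.01 in the habenular class, and -0.09 and 0.01 in the GABAergic class. With so few members these counts describe the list and set it apart from nothing. Within the 20 clusters, 54 pairs of member and cluster had enough UMIs, of which 6 (11.1%) were past 1.5-fold, against 7.19% of all pairs of gene and cluster.

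Cbln1 was lower in the injury library in the thalamic and habenular classes, the classes with enough UMIs for a ratio. In the GABAergic class, with 17 and 30 UMIs, its level was 1.17 and 1.20 CPM. It had 573 UMIs in sham and 393 in injury thalamic nuclei, or 8.58 and 5.61 CPM, a log2 ratio of -0.61 (-0.80 to -0.42), 1.53-fold lower. In the habenular class it had 63 and 37 UMIs, or 5.92 and 2.92 CPM, a log2 ratio of -1.02 (-1.65 to -0.41). As an upper estimate, free RNA alone would give 1.77 CPM in sham and 0.677 in injury habenular nuclei. Sham habenular clusters 7 and 11 stood at 0.670 and 1.63 CPM. The part of free RNA in the difference was not tested. All 6 clusters with enough UMIs had a ratio below 0, and the interval was below 0 in 3 of them. These were cluster 4 (255 and 212 UMIs, log2 -0.59), cluster 6 (77 and 46, -0.77) and habenular cluster 8 (57 and 24, -1.21). The thalamic value stood close to the limit: with the kept-out thalamic-like clusters 5, 17 and 19 included, chosen after seeing the data, it was -0.58 and no longer past 1.5-fold. The habenular value rested on cluster 8, which met the lowest number of habenular markers accepted, 5 of 12. At the finer resolution the habenular class had 1.61 CPM of Cbln1 in sham and 1.68 in injury, with too few UMIs for a ratio. That class no longer held the part of cluster 8 richer in Cbln1. This part had 51 and 21 UMIs, at 16.0 CPM in sham (11.9 to 21.0) and 6.52 in injury (4.03 to 9.96). The other part of cluster 8 had 2.95 and 1.54 CPM. Both finer parts of cluster 4 had less Cbln1 in the injury library, with intervals that did not overlap in the part higher in Cbln1 (37.7 to 53.2 CPM in sham, 23.1 to 33.8 in injury) and that did so by a narrow margin in the other (18.9 to 27.2 and 12.7 to 19.0).

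The Cbln1 locus holds noncoding genes that the comparison must name. Gm2694 (ENSMUSG00000097248), a lincRNA at chr8:87460469-87525554, runs over the whole of Cbln1 on the opposite strand. Gm27016 (ENSMUSG00000097992), at chr8:87476055-87495462, lies on the same strand as Cbln1, 3445 bases before its start. Whether the counting used strand is not given in the sources used here, and without strand, reads within the 4205 bases of Cbln1 could not be assigned to it or to Gm2694. Both genes were among the 3 whose levels over the 20 sham clusters were most like those of Cbln1 of 9748 genes compared: Pearson's r of log2(CPM + 1) was 0.83 for Gm27016 and 0.81 for Gm2694 in the sham library, and 0.88 and 0.85 in the injury library. The third was Cmtm8, at 0.85 and 0.69. Between the libraries the neighbours parted. Gm27016 stood at 33.1 CPM in sham and 26.2 in injury thalamic nuclei, a log2 ratio of -0.34 (-0.43 to -0.25). Gm2694 stood at 56.3 CPM in both, a log2 ratio of -0.00 (-0.07 to 0.06), with 3762 and 3941 UMIs. In cluster 4, Gm2694 had a log2 ratio of 0.01 (-0.09 to 0.11) and Gm27016 of -0.24 (-0.38 to -0.10).

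**Figure D3:**
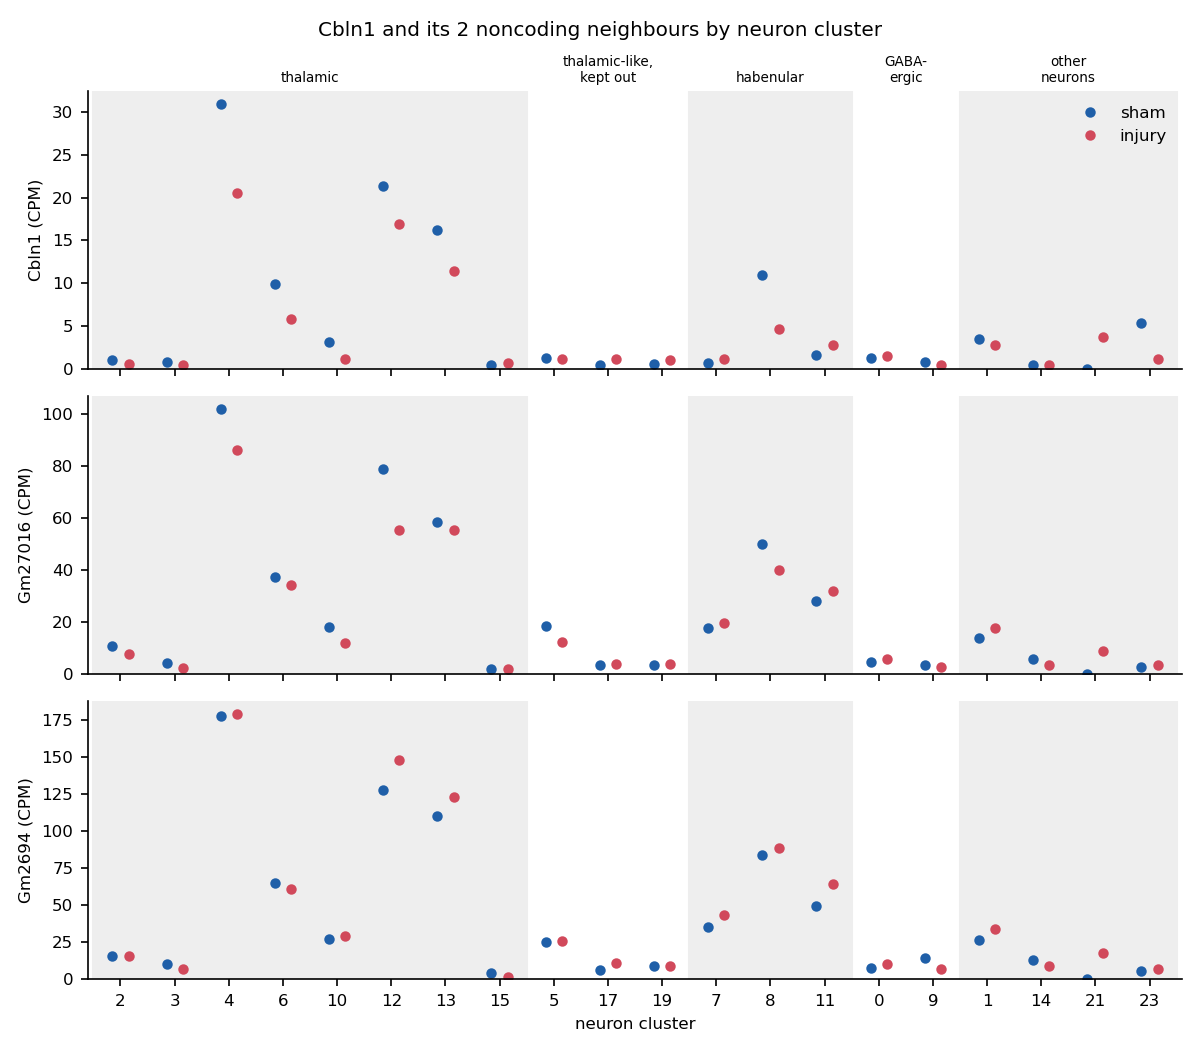
Level of Cbln1 and of the noncoding genes Gm27016 and Gm2694 beside or across it, in CPM (vertical axes, from 0), in the 20 neuron clusters of the sham (blue) and injury (red) library. The 3 genes are high in the same clusters, with cluster 4 first, while in thalamic nuclei as a class Gm2694 stands at 56.3 CPM in both libraries.

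Cbln2 was lower in GABAergic nuclei of the injury library, at 9.29 CPM in sham and 5.61 in injury from 135 and 140 UMIs, a log2 ratio of -0.73 (-1.08 to -0.38). Nearly all of these UMIs, 122 and 126, were in cluster 0, where the log2 ratio was -0.74 (-1.11 to -0.37). In the habenular class the ratio was -0.31 (-0.51 to -0.12), from 435 and 417 UMIs, and -0.16 with equal cluster weights. Cluster 8, the habenular cluster highest in Cbln2, held 49.0% of the habenular UMIs in sham and 40.2% in injury. Within habenular clusters 7, 8 and 11 the ratio was -0.25, -0.28 and 0.26. In the thalamic class it was -0.10 (-0.29 to 0.08), which free RNA subtraction turned to 0.10. Of the 11 clusters with enough UMIs, 8 had a ratio below 0 and 3 above, with the interval below 0 in 2.

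Cbln4 showed no difference beyond counting error in any class: the log2 ratio was -0.04 (-0.18 to 0.11) in thalamic, 0.28 (-0.08 to 0.65) in habenular and -0.23 (-0.63 to 0.17) in GABAergic nuclei. Within the 8 clusters with enough UMIs it was below 0 in 7, with the interval below 0 in 4. The largest difference was in cluster 2 (Snx31, C6, Pth2r), with 70 and 32 UMIs, 3.74 and 1.72 CPM and a log2 ratio of -1.12 (-1.77 to -0.50). As an upper estimate, free RNA alone would give 2.74 and 1.55 CPM in thalamic nuclei, while sham thalamic clusters 3, 10, 12 and 15 stood between 0.382 and 0.533 CPM. Its part in the difference was not tested. The next of these clusters was cluster 5 (14.0 and 8.94 CPM, -0.65). Habenular cluster 11, with 33 and 16 UMIs, had too few for this ranking, at 13.5 and 6.30 CPM. In cluster 4, its main source, the ratio was -0.18 (-0.34 to -0.02). Cluster 4 supplied 12.4% of the UMIs of the thalamic class in sham and 14.8% in injury. With equal cluster weights in both libraries the class ratio was -0.24.

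C1ql3 had 823 UMIs in sham and 620 in injury thalamic nuclei, or 12.3 and 8.86 CPM, a log2 ratio of -0.48 (-0.63 to -0.32). Here too the mix of clusters differed: cluster 13, rich in C1ql3, held 6.10% of the class in sham and 3.12% in injury, and with equal cluster weights the ratio was -0.26. Within clusters 2, 12 and 13 it was -0.36, -0.28 and 0.04. In cluster 5, the main source, it was -0.10 (-0.24 to 0.04). In the GABAergic class the ratio was 0.34 (-0.18 to 0.87), and -0.18 with neurons clustered at a resolution of 1.0.

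Grid1 differed by small amounts measured on many UMIs. In thalamic nuclei it had 54955 and 64053 UMIs, or 823 and 915 CPM, a log2 ratio of 0.15 (0.14 to 0.17), and 7 of the 8 thalamic clusters had a ratio above 0, the exception being cluster 13 at -0.13. In habenular nuclei it had 859 and 747 CPM, a log2 ratio of -0.20 (-0.24 to -0.16). Cluster 7, lowest in Grid1, held 28.0% of the habenular UMIs in sham and 39.8% in injury, and with equal cluster weights the habenular ratio was 0.00. Within habenular clusters 7, 8 and 11 it was -0.01, -0.02 and 0.15. In GABAergic nuclei it was 0.04 (0.00 to 0.08), and -0.011 with neurons clustered at a resolution of 1.0.

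C1ql1 in oligodendrocyte precursors had a log2 ratio of -0.64 (-1.28 to -0.00), the 1 of 2 members with enough UMIs past 1.5-fold there, against 10.4% of all genes (4.37% lower). In cluster 1 the ratio was -0.13 (-0.77 to 0.51). C1ql2 had too few UMIs for a ratio in any class as defined here.

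**Figure D4:**
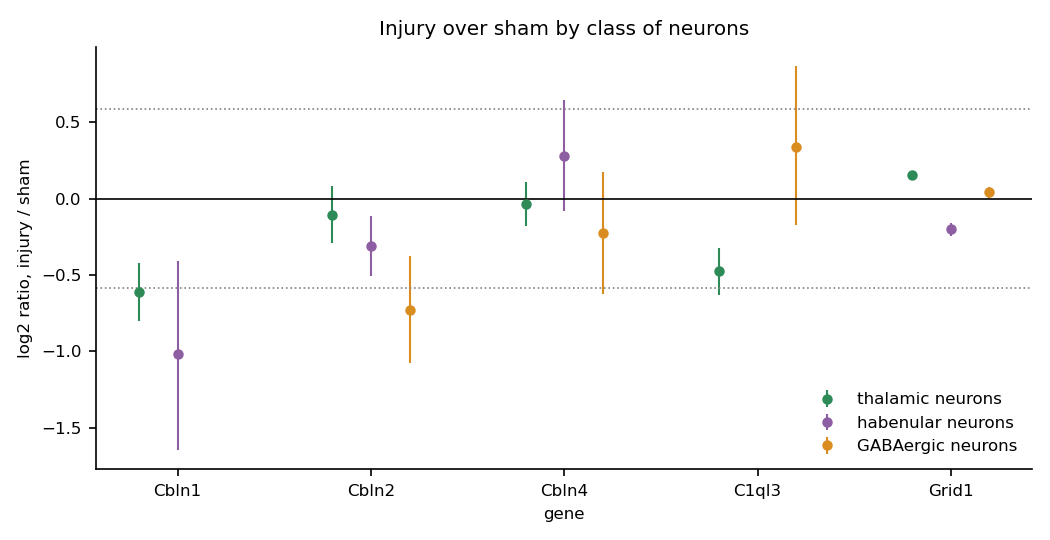
Log2 ratio of injury over sham (vertical axis) of the members with at least 50 UMIs (horizontal axis) in thalamic, habenular and GABAergic neurons, with exact binomial 95% intervals and dotted lines at 1.5-fold. Cbln1 in thalamic (-0.61) and habenular (-1.02) and Cbln2 in GABAergic neurons (-0.73) lie past the lower line.

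**Figure D5:**
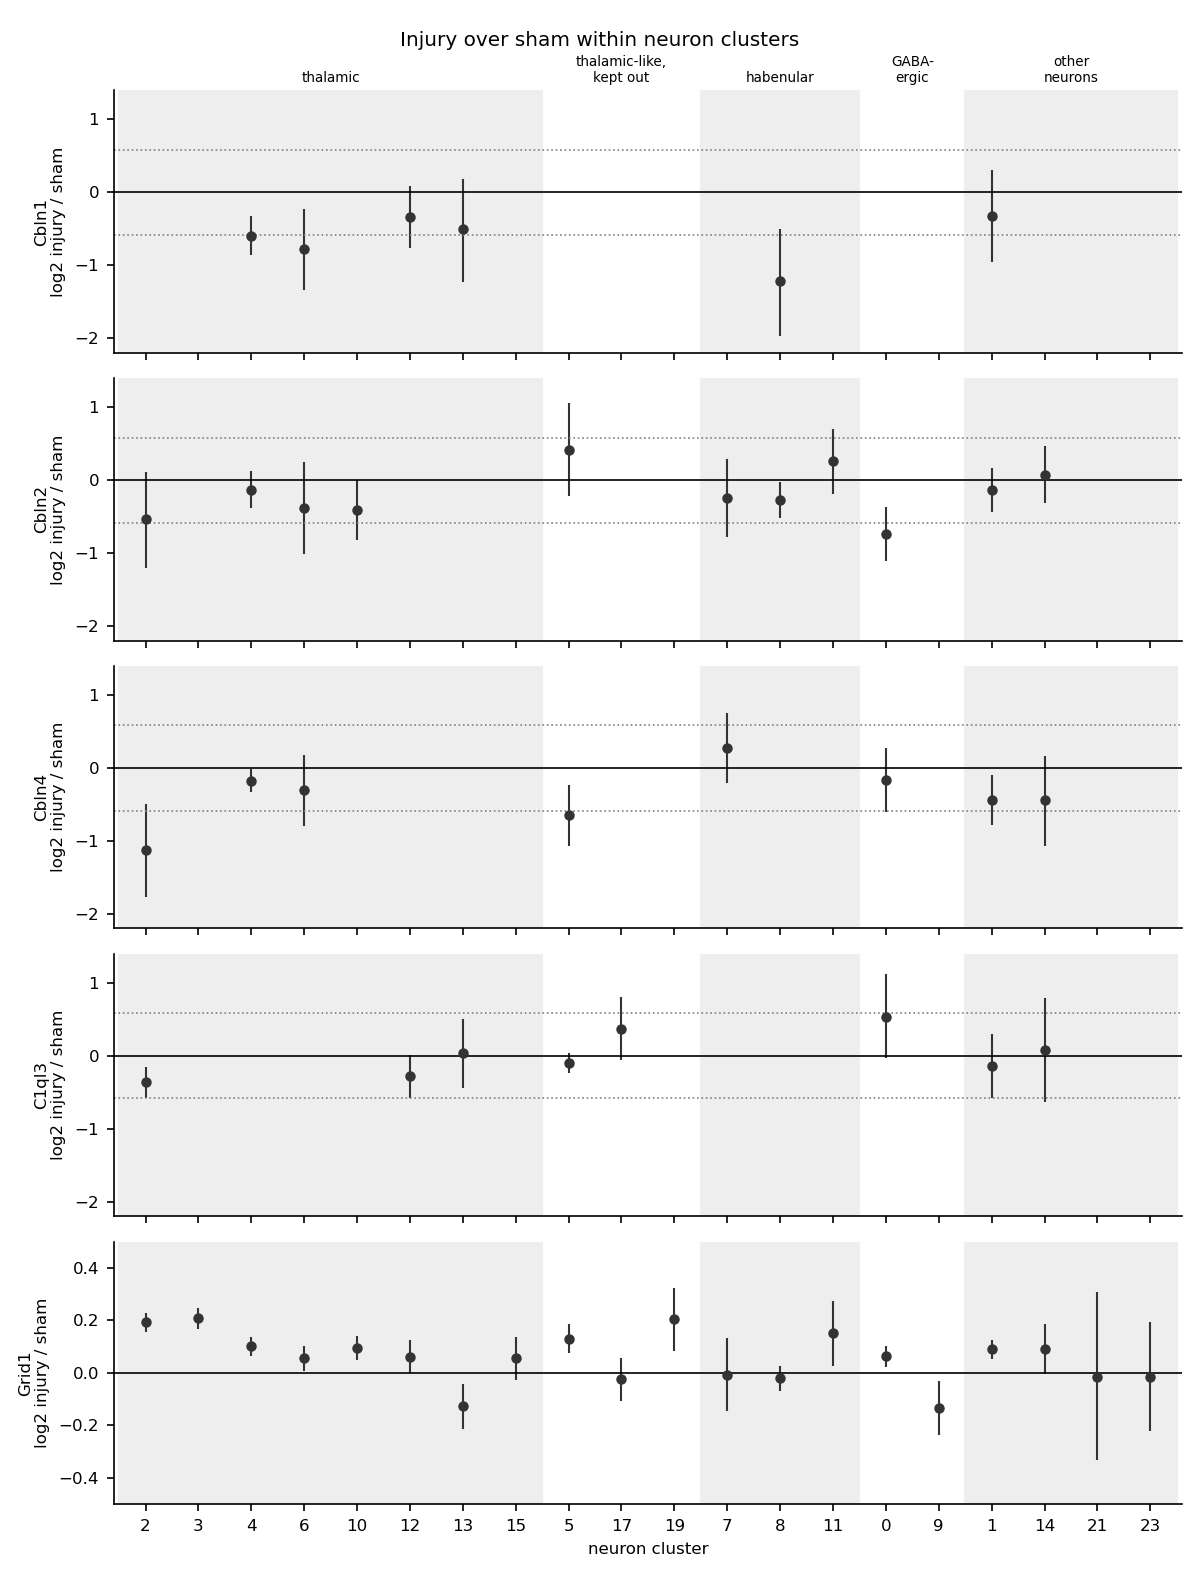
Log2 ratio of injury over sham (vertical axes, with a narrower range for Grid1) within each neuron cluster (horizontal axis, by class) with at least 50 UMIs of the gene, with exact binomial 95% intervals and, but for Grid1, dotted lines at 1.5-fold. All 6 points of Cbln1 lie below 0, and those of Grid1 lie between -0.14 and 0.21.

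Of the 10 relatives and partners, 8 had enough UMIs in each of the 3 classes and 0 were past 1.5-fold, against 5.69%, 4.45% and 7.2% of all genes. This list was chosen with earlier results of these data known. In the thalamic class 4 were above and 4 below 0. The kainate receptor subunit gene Grik4 was nearest to the limit, at 79.8 CPM in sham and 111 in injury thalamic nuclei, a log2 ratio of 0.47 (0.42 to 0.52), above 0 in all 7 thalamic clusters with enough UMIs. Adgrb3 had a thalamic log2 ratio of -0.10 (-0.11 to -0.09) and was below 0 in all 8 thalamic clusters. In habenular nuclei Nrxn3 had the lowest ratio, -0.39 (-0.43 to -0.35). Cluster 7, the cluster lowest in Nrxn3, held 28.0% of the habenular UMIs in sham and 39.8% in injury. Within cluster 7 Nrxn3 was higher in injury past 1.5-fold, at 0.60 (0.36 to 0.85), and in clusters 8 and 11 it was -0.20 and -0.08. It was also higher in injury in unnamed clusters 21 and 23 (1.21 and 1.10) and in astrocytes (1.06). Of all genes, 29.8% in cluster 21 and 15.7% in cluster 23 were past 1.5-fold, so these clusters differed broadly between the libraries. The share was 5.73% in cluster 7 and 7.19% over all pairs of gene and cluster, and was not computed for astrocytes. Over all 20 clusters the Nrxn3 ratio was above 0 in 9 and below 0 in 11.

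The genes most like the other members over the 20 sham clusters were, for Cbln2, M6pr, Nbeal1 and Rragc (r of 0.83, 0.82 and 0.81), which stood at 0.45, 0.45 and 0.38 in the injury library. For Cbln4 they were Nucb2 (0.85 in sham and 0.74 in injury), Olfm2 (0.84 and 0.83) and Scaper (0.83 and 0.51). For C1ql3 they were Myo18b (0.88 and 0.78), Arhgef5 (0.84 and 0.81) and 4933431E20Rik (0.83 and 0.83), and for Grid1 Tpd52l1 (0.82 and 0.79), Csmd3 (0.79 and 0.69) and Cachd1 (0.77 and 0.78). For C1ql2, a member with few UMIs, they were Gm36903 (0.95 and 0.94), Gm13816 (0.94 and 0.89) and Padi1 (0.90 and 0.84). For C1ql1, also with few UMIs, they were Sema3c (0.80 and 0.57), Ttc6 (0.72 and 0.72) and Mosmo (0.71 and 0.22). Clusters of a library share its depth and free RNA, and these values carry no test. These genes were picked by their sham values alone, so lower injury values are not read as a change. Between members, Cbln2 with Cbln4 was highest in both libraries (0.58 and 0.60). The next was Cbln1 with Grid1 in sham (0.52, and 0.30 in injury) and C1ql2 with C1ql3 in injury (0.47, and 0.37 in sham).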

How the data were processed

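Single-nucleus RNA sequencing was performed by the authors on 1 sham and 1 injury library, each of nuclei pooled from 4 mice and sorted after propidium iodide staining, with droplet 3′ chemistry. Per the labels and the study's methods, reads were processed with bcl2fastq and Cell Ranger 6.0.2 on GRCm38 (mm10), and the deposited tables hold raw UMI counts per gene and barcode, with no normalization. Whether introns and strand entered the counting, and the annotation release, are not given in the sources used here. All values were whole, the lowest barcode total was 500 UMIs, and 32158 of 32285 gene identifiers took a symbol from GENCODE M21.

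The study's filter (mitochondrial share up to 2%, 200 to 7500 genes) left 16373 sham nuclei (median of 7190 UMIs) and 21777 injury nuclei (6810). Scrublet (scanpy 1.11.5) scores were cut at a share set in advance from the number of nuclei, which marked 13.3% and 17.8% as doublets. These shares thus do not measure doublet rates. Called doublets were kept. Libraries were integrated with Seurat 5.3.0 anchors (R 4.3.3) on 2000 variable genes, of which 1995 were used after members and partners were left out, with 30 components. Neurons were clustered again at a resolution of 0.5. Thalamic clusters needed 6 of 10 markers, habenular clusters 5 of 12, and clusters with over 50% doublets were set apart. A cluster stayed out of its class where foreign class markers outnumbered its own among the 10 leading genes. These thresholds were set after the data were seen, and rebuilt names may differ from those of the study.

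UMIs were summed and scaled to CPM, with exact Poisson intervals for levels and exact binomial (Clopper-Pearson) intervals for ratios and shares. With 1 library per group no test was run. The named genes were the members, the listed relatives and partners, markers that check a class, and for each member the 3 genes with the highest Pearson correlation over sham clusters among genes with at least 20 CPM in 1 of them. Members and lists were chosen with earlier results of these data known. The ratio and call were run on simulated counts with known folds, drawn with counting error only. That run checks the computation and cannot show how far mice or libraries differ. The alternatives included TMM factors from edgeR, which were used for scaling only. Some results on the listed partners are not reported here.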

Additional observations from a re-analysis of the deposited data

Results flagged for a closer look

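Grid1 moved in opposite directions between classes: the log2 ratio of injury over sham was 0.15 in thalamic and 0.040 in GABAergic nuclei and -0.20 in habenular nuclei, with intervals that did not hold 0. The same was seen between neuron clusters, with the interval above 0 in 10 and below 0 in 2, cluster 13 and reticular-like cluster 9. These differences between classes and between clusters were not tested. In habenular nuclei, cluster 7 held 28.0% of the UMIs in sham and 39.8% in injury. With equal cluster weights the habenular ratio was 0.00031, and within clusters 7, 8 and 11 it was -0.01, -0.02 and 0.15, with no interval below 0. The GABAergic ratio was -0.011 with neurons clustered at a resolution of 1.0.

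C1ql3 stood at 226 CPM in the dentate-like cluster, which had 219 nuclei in the injury and 0 in the sham library and entered no comparison, above the highest sham cluster at 99.7 CPM.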

How the results depend on the processing

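The ratio of Cbln1 in thalamic nuclei kept its direction under the 10 alternatives that gave it, from -0.65 to -0.58. In habenular nuclei it ran from -1.10 to -0.82 where it could be had. At a resolution of 1.0 too few UMIs were left for it, at 1.61 CPM in sham and 1.68 in injury. The habenular class then no longer held the part of cluster 8 richer in Cbln1, which had 16.0 CPM in sham and 6.52 in injury. Cbln2 in GABAergic nuclei kept its direction under the same 10 alternatives, from -0.99 to -0.71. With called doublets left out, no integration, TMM factors or only nuclei with at least 2000 UMIs, every ratio stayed within its interval and every count within 1.5 times. Neuron clustering at a resolution of 1.0 gave thalamic Cbln4 -0.35, habenular Grid1 -0.32, GABAergic C1ql3 -0.18 and Grid1 -0.011, medians of -0.34 (thalamic) and -0.21 (GABAergic) and 0 habenular members past 1.5-fold. Habenular Cbln1 had too few UMIs to be counted there, and the share of all genes was not computed. Equal cluster weights gave thalamic Cbln4 -0.24, C1ql3 -0.26 and Grid1 0.12, habenular Grid1 0.00031, and medians of -0.24 (thalamic) and -0.080 (habenular). Free RNA subtraction gave thalamic Cbln2 0.10, habenular Grid1 -0.27, medians of -0.0029 (thalamic) and -0.37 (habenular) and 2 GABAergic members past 1.5-fold. The added member was C1ql3, whose sham level was cut to 0 CPM and whose injury level was 0.368, so it had no finite ratio. How many of all genes were past 1.5-fold after subtraction was not computed. The share of free RNA was put at 17.2% to 31.2% by markers of other classes, an upper estimate, since the astrocyte list stood at 29.4 CPM in sham cluster 11 and 545 in cluster 12. Median-of-ratios factors gave thalamic Grid1 0.17, the mean of single nuclei gave GABAergic Grid1 0.10, and with it 1 member was highest in habenular nuclei in each library. With no minimum but 1 UMI, 2 members were past 1.5-fold in each class. The added ones were thalamic C1ql2 (9 and 2 UMIs), habenular C1ql1 (4 and 3) and GABAergic C1ql2 (3 and 11, higher in injury), and the share of all genes at that minimum was not computed. Including clusters 5, 17 and 19 in the thalamic class, chosen after seeing the data, gave C1ql3 -0.29 and Cbln1 -0.58, and the 1 thalamic member past 1.5-fold was then C1ql2, at 0.464 CPM in sham and 0.279 in injury, in place of Cbln1. The causes were not tested.

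No paired analysis was possible because only 1 library of pooled mice stood for a group. For that reason no library was left out. Depth limits C1ql1 and C1ql2: 0 UMIs of C1ql2 in sham cluster 8 allow up to 0.575 CPM, taken as 3 UMIs.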
